A study of Homo sapiens with 9 samples.

Results

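The genes described here encode the constitutive proteasome: the subunits of the core particle, the subunits of the regulatory particle, and 3 chaperones that carry the same family of names. They were chosen by symbol, as every listed gene named PSMA, PSMB, PSMC or PSMD followed by a number, with the interferon-inducible subunits PSMB8, PSMB9 and PSMB10 left out. This gave 35 of the 16199 genes listed in at least 1 library, and 34 of them were among the 12394 genes that passed the count filter. The exception was PSMA8, a testis-type alpha subunit, which had 2 counts in EGF replicate 2 and 0 in the other 8 libraries, under the limit of 3 counts that a library can show (0.141 to 0.148 CPM, counts scaled to library size, counting error only). PSMB11, the thymus-type beta subunit, was not listed.

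RNA was sequenced from HaCaT cells, an immortalized human keratinocyte line, in 3 groups of 3 replicates, all kept in serum-free media. Untreated cells received no ligand, the second group received epidermal growth factor (EGF, 10 nM) for 24 h, and the third received bleogen pB1 (1 µM), a miniprotein from a cactus that acts on the EGF receptor, for 24 h. All groups come from a single line with no engineered change, and nothing in the labels says whether replicates were grown as separate cultures, so p-values measure only the spread between these libraries, which may be technical. The comparisons ask what each ligand does to the transcripts of the cells, and the molar doses of the 2 ligands differ.

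The proteasome is the protease that degrades proteins tagged with ubiquitin. Its core particle is a barrel of stacked rings, with alpha subunits forming the gated outer rings and beta subunits forming the inner rings, where PSMB5, PSMB6 and PSMB7 carry the proteolytic sites. The regulatory particle caps the barrel: its base holds a ring of ATPases that unfold substrates and thread them into the core, and its lid removes the ubiquitin chain. Transcription of the subunit genes is known to be raised in a coordinated way by the factor NFE2L1 when proteasome capacity is limiting.

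The libraries held 20288417 to 21320994 expected counts (median 20629237), and a member past the filter had between 675 and 13096 counts in a library. All 7 keratinocyte markers (KRT5, KRT14, TP63, ITGA6, KRT6A, DSP, SFN) were detected in every library, with summed levels of 12129 to 14126 CPM. The sum hid opposite changes with EGF, since KRT5 and DSP were lower by 1.12 and 0.70 on the log2 scale while KRT6A and KRT14 were higher by 2.29 and 0.88 and ITGA6 also rose, each with an adjusted p of at most 0.05. Markers of other cell types were low: the summed level of 5 fibroblast genes was 7.23 to 8.50 CPM in untreated, 1.25 to 2.00 CPM in EGF-treated and 5.48 to 8.07 CPM in bleogen pB1-treated cells, with PDGFRA and COL1A2 each at 0 in 8 of 9 libraries. The 5 melanocyte genes summed to 6.73 to 9.12, 5.24 to 6.60 and 6.64 to 7.96 CPM, with DCT at 0 in 8 of 9 libraries and TYR not listed. The 4 immune genes summed to 11.7 to 12.5, 19.2 to 21.2 and 10.3 to 11.7 CPM, nearly all of it CD68 (11.6 to 12.2, 18.9 to 21.0 and 10.0 to 11.4 CPM), while PTPRC, CD3E and CD14 stayed at or under 0.29 CPM in every library. These levels moved with EGF, and their part in the results was not tested.

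In untreated cells the subunit genes were among the highly expressed genes. On the FPKM scale, which corrects for gene length, their median level was 89.0, against 10.6 over all genes past the filter, and 22 of the 34 lay at or above the 90th percentile. The order was led by PSMB4 (304 ± 20.3 FPKM, SD, n = 3), PSMB3 (294 ± 26.2) and PSMB7 (255 ± 6.33), all of the beta ring. The levels of PSMB4 and PSMB3 were closer together than their spread. The lid subunit PSMD3 came next at 185 ± 2.08 FPKM, followed by PSMA7 at 180 ± 5.68 FPKM. At the other end stood the alpha subunit PSMA5 (24.9 ± 0.444 FPKM), the lid subunit PSMD12 (22.8 ± 1.60) and the base chaperone PSMD9 (15.1 ± 0.627). Subunits that are present in equal number in the assembled core thus differed in FPKM, and the highest was 11.6 to 13.1 times the lowest within each untreated library. This spread depends on the gene length used. In CPM, which does not correct for length, the untreated means of core genes ran from 77.4 (PSMA3) to 272 (PSMB2). The median FPKM of the base and lid genes was 0.40 ± 0.01 of that of the core genes (SD, n = 3).

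Most of the genes were higher in EGF-treated cells. Against untreated cells, 30 of 34 were higher at an adjusted p of at most 0.05 (edgeR's quasi-likelihood test, Benjamini-Hochberg over all genes past the filter), while 32.4% of all genes were higher by the same rule. None was lower, against 33.6% of all genes. Adding the limit of a log2 fold change of at least 0.5 left 18 members higher and 0 lower, against 15.1% and 21.8% of all genes. In 31 members the 3 EGF-treated libraries all lay above the 3 untreated ones, which held for 34.5% of all genes. The median log2 fold change was 0.52 (1.44-fold) and the range −0.04 to 1.14, whereas the median over all genes was −0.01. The summed level of the members was 5263 ± 115 CPM in untreated and 7600 ± 133 CPM in EGF-treated cells (SD, n = 3), a ratio of 1.44. Without scaling factors, the members held 0.531% and 0.738% of all counts, a ratio of 1.39. In bulk RNA a change in the number of cells of a kind and a change in RNA per cell cannot be told apart.

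**Figure D1:**
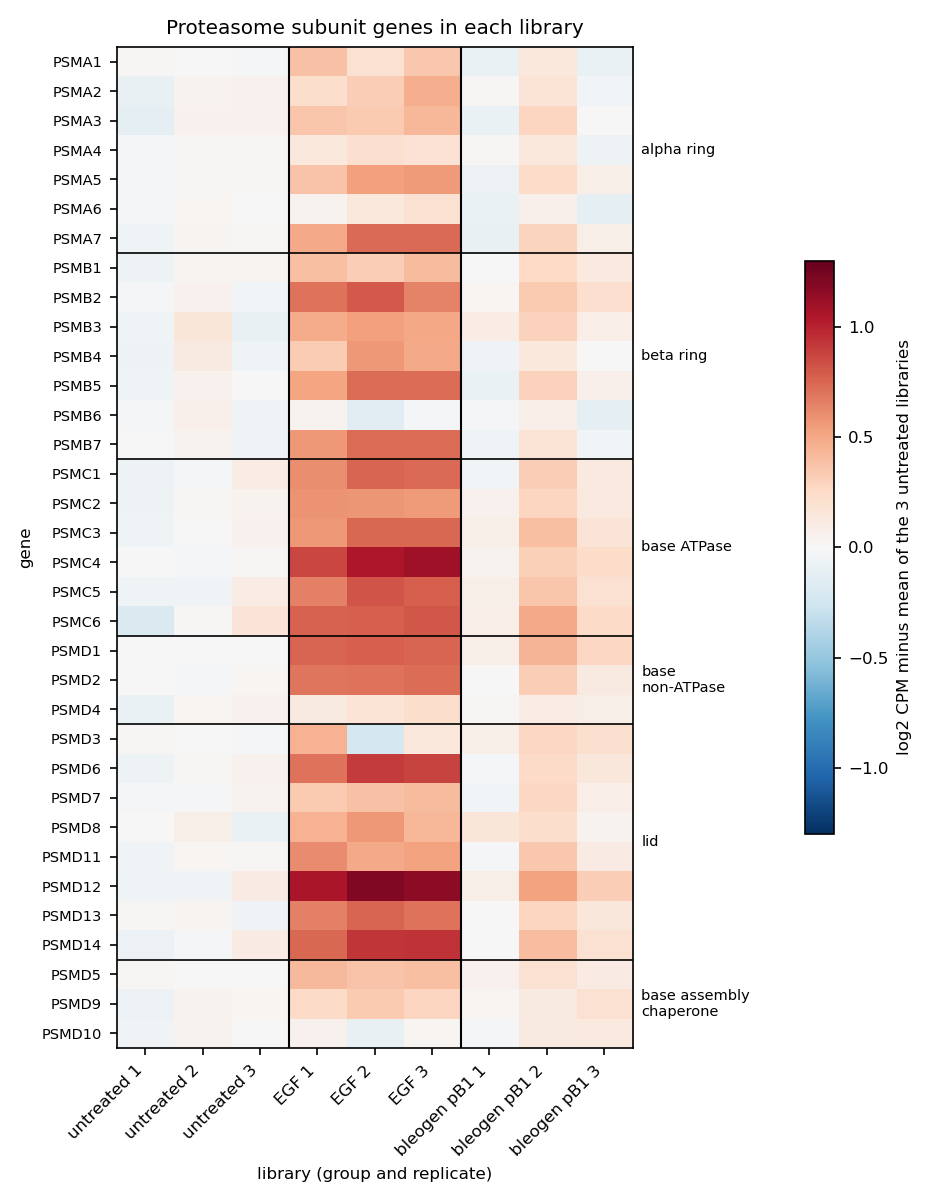
Log2 CPM of each of the 34 subunit genes (rows, grouped by subcomplex) in each of the 9 libraries (columns), minus the mean of the 3 untreated libraries, on a color scale in log2 units. The EGF columns are red in nearly all rows, with a median per library of 0.48 to 0.56, and the column of bleogen pB1 replicate 2 is redder (0.27) than those of replicates 1 (0.01) and 3 (0.12).

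The alpha ring had the lowest median change among the structural parts. Of its 7 genes 6 were higher with EGF, against 32.4% of all genes, and the median log2 fold change was 0.34. Past both thresholds was 1 of the 7, which is near the share of 15.1% of all genes. The counts of the other subcomplexes stand against the same shares, and parts of so few genes can come near them. PSMA7 showed the largest rise of the ring, from 167, 178 and 176 CPM in the untreated to 244, 290 and 290 CPM in the EGF-treated libraries (log2 fold change 0.66, SE 0.09, adjusted p = 4.2e-05 from edgeR). Its groups did not overlap. PSMA6 was at 165, 171 and 168 CPM in untreated and at 173, 184 and 193 CPM in EGF-treated cells, and did not pass the test (0.13, SE 0.06, adjusted p = 0.094), although its groups did not overlap either. The other 5 genes had log2 fold changes between 0.18 (PSMA4) and 0.49 (PSMA5).

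In the beta ring 6 of 7 genes were higher with EGF, 4 of them past both thresholds, with a median log2 fold change of 0.50. The 3 proteolytic subunits differed from each other. PSMB5, which carries the chymotrypsin-like site, was at 79.4, 85.8 and 82.2 CPM in untreated and at 117, 136 and 136 CPM in EGF-treated cells. All 3 EGF-treated libraries were above the untreated ones (log2 fold change 0.65, SE 0.09, adjusted p = 4e-05 from edgeR). PSMB7, which carries the trypsin-like site, was at 246, 253 and 237 CPM in untreated and at 363, 406 and 404 CPM in EGF-treated cells, again without overlap (0.67, SE 0.07, adjusted p = 3.9e-06). PSMB6, which carries the caspase-like site, stood at 127, 134 and 124 CPM in untreated and at 133, 116 and 127 CPM in EGF-treated cells. Its groups overlapped (log2 fold change −0.04, SE 0.07, adjusted p = 0.64). Among the structural beta subunits, the largest change was that of PSMB2, with a log2 fold change of 0.72 (SE 0.08), and PSMB1, PSMB3 and PSMB4 rose by 0.37 to 0.50.

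**Figure D2:**
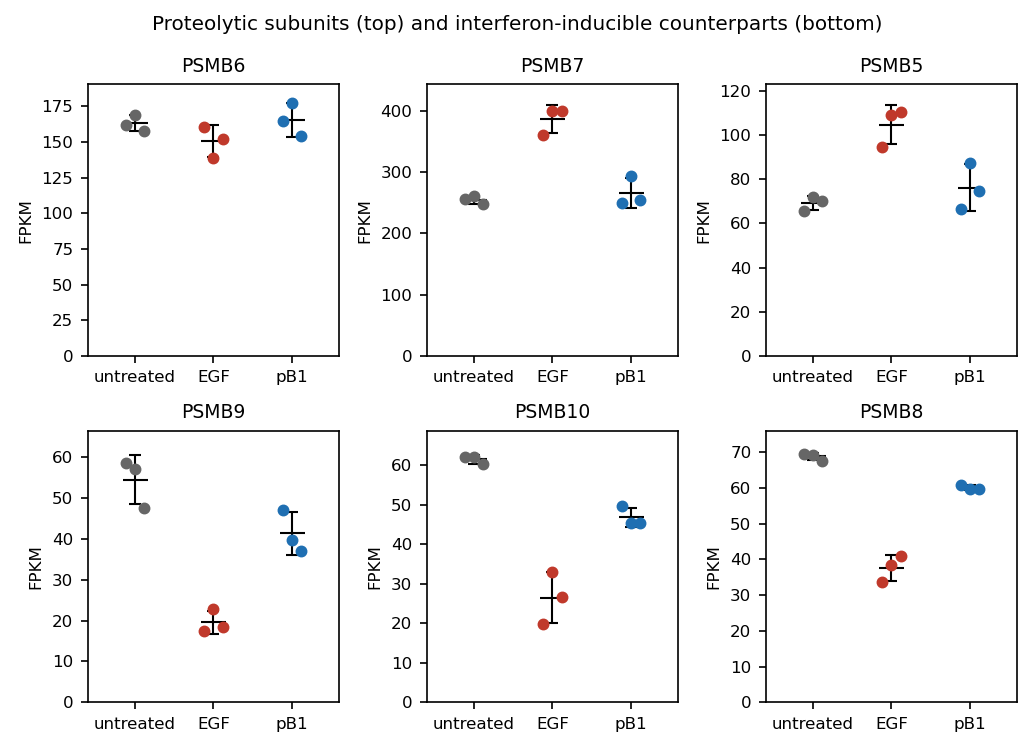
FPKM in each library (points; bars show mean and SD of 3) for the proteolytic beta subunits PSMB6, PSMB7 and PSMB5 and, below each, the interferon-inducible subunit that takes its place, with axes starting at 0. With EGF, PSMB7 and PSMB5 are higher, PSMB6 overlaps the untreated libraries, and PSMB9, PSMB10 and PSMB8 are lower.

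The medians of the regulatory subcomplexes were higher than those of the core, a difference that was not tested. All 6 ATPases of the base were higher with EGF and past both thresholds, with a median log2 fold change of 0.73. PSMC4 was at 77.7, 76.7 and 78.1 CPM in the untreated and at 141, 161 and 167 CPM in the EGF-treated libraries. The groups were far apart (log2 fold change 1.01, SE 0.08, a 2.01-fold level, adjusted p = 2.6e-07 from edgeR). PSMC6 was at 55.4, 64.1 and 71.2 CPM in untreated and at 108, 108 and 111 CPM in EGF-treated cells. The EGF-treated libraries lay close together above a wider untreated group (0.78, SE 0.10, adjusted p = 2.6e-05). The remaining ATPases PSMC1, PSMC2, PSMC3 and PSMC5 rose by 0.57 to 0.75. Exons of PSMC1, PSMC2 and PSMC5 share bases with listed genes on the opposite strand (NRDE2, SLC26A5 and FTSJ3), and those of PSMC2 also with PMPCB on its own strand. The use of the strand in counting is not given in the sources used here, so these values, and that of PSMD1 beside HTR2B, are less certain.

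Of the 3 non-ATPase subunits of the base, all were higher. PSMD1 and PSMD2, the large scaffold proteins on which ubiquitin receptors and shuttles dock, rose by 0.76 (SE 0.08) and 0.71 (SE 0.07) on the log2 scale. PSMD4, a ubiquitin receptor, was at 138, 149 and 153 CPM in untreated and at 159, 166 and 171 CPM in EGF-treated cells. Its rise was small, although the groups did not overlap (log2 fold change 0.17, SE 0.06, adjusted p = 0.017 from edgeR). The call was lost in 7 of 21 alternatives, with a log2 fold change down to 0.07 and an adjusted p up to 0.30 with upper-quartile factors. Among the other members called with EGF, PSMA4 was the one that lost its call, in 6 of 21.

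In the lid 7 of 8 genes were higher with EGF, 5 of them past both thresholds, with a median log2 fold change of 0.62. PSMD12, a scaffold subunit of the lid, had the largest change of all members. It was at 94.3, 95.0 and 106 CPM in untreated and at 205, 226 and 220 CPM in EGF-treated cells, so that the lowest EGF-treated library was well above the highest untreated one (log2 fold change 1.14, SE 0.09, a 2.21-fold level, adjusted p = 5.1e-07 from edgeR). PSMD14, the deubiquitinase that cuts the ubiquitin chain from the substrate, was at 104, 108 and 119 CPM in untreated and at 184, 209 and 210 CPM in EGF-treated cells. Its groups did not overlap (0.87, SE 0.09, adjusted p = 4.2e-06). PSMD6, another scaffold subunit, was at 47.1, 49.96 and 51.4 CPM in untreated and at 80.9, 92.8 and 91.0 CPM in EGF-treated cells, also without overlap (0.83, SE 0.08, adjusted p = 1.9e-06).

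PSMD3 was the lid gene that did not pass the test. It was at 393, 390 and 383 CPM in the untreated libraries, and at 533, 332 and 428 CPM in EGF replicates 1, 2 and 3. The untreated libraries were close together, whereas the EGF-treated ones lay on both sides of them (log2 fold change 0.15, SE 0.12, adjusted p = 0.31 from edgeR). Without EGF replicate 2 the log2 fold change was 0.31 with an adjusted p of 0.0062, and without EGF replicate 1 it was −0.03.

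The base chaperones guide assembly and are not part of the finished particle. PSMD5 and PSMD9 were higher with EGF by 0.40 (SE 0.05) and 0.29 (SE 0.07) on the log2 scale, and neither reached the limit of 0.5. PSMD10, also known as gankyrin, was at 53.3, 57.0 and 55.4 CPM in untreated and at 57.4, 51.6 and 56.0 CPM in EGF-treated cells, with overlapping groups (log2 fold change −0.01, SE 0.07, adjusted p = 0.95 from edgeR).

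With the unequal changes, the transcript level of the base and lid genes was higher relative to that of the core genes. The amount of either particle was not measured, and the subunit genes ADRM1 and SEM1 are not among the members summed here. The summed FPKM of the core genes was 2201 ± 73.0 in untreated and 2809 ± 98.4 in EGF-treated cells, a ratio of 1.28. For the base and lid genes it was 1360 ± 41.4 and 1957 ± 30.2, a ratio of 1.44. The median FPKM of base and lid genes over that of core genes was 0.396, 0.387 and 0.415 in the untreated libraries, and 0.549, 0.588 and 0.534 in the EGF-treated ones. These ratios did not overlap between the groups of 3 libraries, and they are given as a description with no test. The ratio of medians shifted more than the ratio of sums did. The median FPKM of the core genes was 164 in untreated and 177 in EGF-treated cells. That is a ratio of 1.08, against 1.28 for the sum of the same genes. The size of the shift between base and lid genes and core genes thus depends on the measure. Genes with a lower untreated FPKM tended to have the larger log2 fold change (Spearman's rho −0.37 across the 34 genes, which are not independent replicates and share the untreated libraries in both measures).

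The sequence before the transcription start is shown for the 3 genes with the largest rise, since members that move together may share letters there. The 250 bases upstream of the RefSeq start (GRCh38.p14) are printed in the direction of the gene, in lower case, with matches in capitals to TGACNNNGC, the core of the antioxidant response element that NFE2L1 and its relatives bind with a small MAF partner, and to CCAAT, the box bound by NF-Y, each on either strand. The letters TGACNNNGC can overlap an AP-1 type site. PSMD12 lies on chromosome 17 (67337916 to 67366605, minus strand, GENCODE release 44), PSMC4 on chromosome 19 (39971165 to 39981764, plus strand) and PSMD14 on chromosome 2 (161308425 to 161411717, plus strand). The PSMD12 window, chr17:67366578-67366827, holds 1 match to TGACNNNGC, the PSMD14 window, chr2:161308175-161308424, holds CCAAT on both strands in overlapping letters, and the PSMC4 window, chr19:39970915-39971164, holds neither.
PSMD12: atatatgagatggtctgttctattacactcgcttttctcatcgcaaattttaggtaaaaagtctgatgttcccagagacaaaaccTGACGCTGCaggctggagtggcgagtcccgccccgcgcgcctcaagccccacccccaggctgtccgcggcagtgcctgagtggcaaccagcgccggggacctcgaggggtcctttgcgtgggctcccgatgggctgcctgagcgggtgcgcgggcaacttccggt
PSMC4: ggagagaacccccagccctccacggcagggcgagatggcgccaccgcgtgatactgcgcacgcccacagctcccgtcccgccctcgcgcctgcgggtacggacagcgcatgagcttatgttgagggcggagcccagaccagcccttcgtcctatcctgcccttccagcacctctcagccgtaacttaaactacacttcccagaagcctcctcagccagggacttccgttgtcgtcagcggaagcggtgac
PSMD14: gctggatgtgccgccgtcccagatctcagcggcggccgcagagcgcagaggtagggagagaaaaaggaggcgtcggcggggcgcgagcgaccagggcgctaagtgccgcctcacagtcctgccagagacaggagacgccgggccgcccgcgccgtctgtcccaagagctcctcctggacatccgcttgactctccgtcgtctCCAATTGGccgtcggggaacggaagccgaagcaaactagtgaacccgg

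Of the 35 members 30 had such a window, and PSMA7, PSMB1, PSMB6, PSMB7 and PSMD4 had none. TGACNNNGC was found in 7 of the 30 genes (23.3%), against 13.2% of 27305 genes with a window of the same length. CCAAT was found in 15 of 30, against 37.0% of all genes. The genes with TGACNNNGC were PSMA4, PSMB3, PSMC5, PSMD3, PSMD5, PSMD9 and PSMD12, and their log2 fold changes with EGF ran from 0.15 (PSMD3) and 0.18 (PSMA4) to 1.14 (PSMD12). The matches that lie outside the annotated span of their gene are shown with 15 bases on each side, with the match in capitals, so that their letters can be compared with that of PSMD12. The stretches are chr17:38752622-38752660 for PSMB3, chr17:39980755-39980793 for PSMD3, chr9:120843033-120843071 for PSMD5, and chr12:121888626-121888664 and chr12:121888673-121888711 for PSMD9, where the first of the PSMD9 matches is on the reverse strand.
PSMB3: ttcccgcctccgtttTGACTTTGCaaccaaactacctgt
PSMD3: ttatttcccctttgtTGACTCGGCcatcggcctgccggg
PSMD5: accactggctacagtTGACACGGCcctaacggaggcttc
PSMD9, reverse: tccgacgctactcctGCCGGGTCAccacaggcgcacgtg
PSMD9: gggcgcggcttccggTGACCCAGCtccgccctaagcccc
A match describes the letters of the window only and was not tested as a binding site.

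The interferon-inducible subunits, which replace the proteolytic ones in the immunoproteasome, moved the other way. All 3 were lower with EGF and past both thresholds. PSMB8 was at 69.6, 69.1 and 67.6 FPKM in untreated and at 33.8, 38.4 and 40.9 FPKM in EGF-treated cells (log2 fold change −0.75, SE 0.07, adjusted p = 1.8e-06 from edgeR). PSMB9 was at 58.6, 57.0 and 47.5 FPKM and then at 17.5, 22.8 and 18.4 FPKM (−1.40, SE 0.12, adjusted p = 8.8e-07). PSMB10 was at 62.2, 62.3 and 60.3 FPKM and then at 19.9, 32.9 and 26.8 FPKM (−1.14, SE 0.13, adjusted p = 7.9e-06). In no case did the groups overlap, and the share of all genes lower without overlap was not computed. The FPKM ratio of PSMB5 to PSMB8 was 1.01 ± 0.05 in untreated and 2.78 ± 0.07 in EGF-treated cells (SD, n = 3). The ratio of PSMB6 to PSMB9 was 3.02 ± 0.28 and 7.84 ± 1.58, and that of PSMB7 to PSMB10 was 4.14 ± 0.04 and 15.1 ± 2.95. Of the constitutive subunits in these ratios, PSMB6 was the one with no called change.

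Further genes of the pathway, 44 in 6 lists that include these 3, were split between directions. With EGF 24 were higher and 8 lower by adjusted p, against 32.4% and 33.6% of all genes, and 15 and 4 were so past both thresholds, against 15.1% and 21.8%. The counts of the single lists stand against the same shares, and lists of so few genes can come near them. Among 5 genes for activators and the inhibitor of the core, the genes of the interferon-inducible activator, PSME1 and PSME2, were lower by 0.88 (SE 0.08) and 0.44 (SE 0.06) on the log2 scale, whereas the nuclear activator PSME3 was higher by 0.60 (SE 0.07), PSME4 by 0.19 (SE 0.06) and the inhibitor PSMF1 by 0.31 (SE 0.05). Of 7 other subunits and bound proteins 6 were higher, led by the ubiquitin receptor ADRM1 (0.82, SE 0.07) and the deubiquitinase USP14 (0.64, SE 0.07). The small lid protein SEM1 was lower (−0.26, SE 0.07). Of 7 assembly and import factors 3 were higher, namely POMP, which matures the beta ring (0.65, SE 0.08), PSMG1, a chaperone of the alpha ring (0.66, SE 0.09), and AKIRIN2, which brings proteasomes into the nucleus (0.64, SE 0.07). PSMG2, the partner of PSMG1, had a log2 fold change of −0.06 (SE 0.08, adjusted p = 0.52 from edgeR).

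Among 8 genes of transcriptional control 4 were higher and 1 lower, where 32.4% and 33.6% of all genes were, so the count of rises is little above the background. NFE2L1 was at 337, 325 and 343 CPM in untreated and at 355, 437 and 391 CPM in EGF-treated cells (log2 fold change 0.24, SE 0.07, adjusted p = 0.0099 from edgeR). The small MAF genes, whose proteins pair with NFE2L1, changed more, with log2 fold changes of 1.02 (SE 0.09) for MAFF, 1.14 (SE 0.10) for MAFG and 0.91 (SE 0.09) for MAFK. BACH1, a repressor that uses the same partners, was lower (−0.27, SE 0.06). NFE2L2, DDI2, which cuts NFE2L1 into its active form, and NGLY1, which deglycosylates it, were not called (adjusted p = 0.068, 0.33 and 0.3). Of 14 genes for ubiquitin and substrate delivery 8 were higher and 1, UBQLN4, was lower. The rises included UFD1 (0.64, SE 0.07) and NPLOC4 (0.65, SE 0.08), the cofactors of the unfoldase VCP, and the shuttle UBQLN1 (0.60, SE 0.07). The ubiquitin genes UBB and RPS27A were not called, with log2 fold changes of 0.12 (SE 0.06) and −0.05 (SE 0.08).

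Bleogen pB1 gave smaller values. None of the 34 members passed the adjusted p in either direction by edgeR, against 1.56% of all genes higher and 2.55% lower, and none passed both thresholds, against 0.218% of all genes higher and 1.26% lower. At an unadjusted p under 0.05, 12 members were higher and 0 lower, against 11.7% and 10.5% of all genes. DESeq2 called 2 members higher, PSMD1 and PSMD12, against 3.21% of the 16185 genes in its fit. The log2 fold change was positive in 31 of 34, against 49.7% of all genes, with a median of 0.13 and a range of −0.04 to 0.32. In 6 members the treated libraries lay above all untreated ones, which held for 14.4% of all genes. The comparisons of the 2 ligands with untreated cells share the untreated libraries, so the values stand side by side and were not correlated.

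The order of the subcomplexes by median log2 fold change with bleogen pB1 ran from the alpha ring (0.06), the beta ring (0.10) and the base chaperones (0.11) to the lid (0.15), the non-ATPase base (0.15) and the ATPases (0.21). PSMD1 had the smallest adjusted p, at 172, 172 and 173 CPM in untreated and at 181, 234 and 208 CPM in treated cells (log2 fold change 0.27, SE 0.08, adjusted p = 0.063 from edgeR). Its groups did not overlap, and the treated libraries were far more spread. PSMD12 was at 104, 141 and 123 CPM in treated cells, where the lowest library lay within the untreated range (0.32, SE 0.09, adjusted p = 0.075). PSMD14 was at 110, 145 and 126 CPM (0.21, SE 0.09, adjusted p = 0.21). Among the proteolytic subunits, PSMB5 was at 77.6, 101.5 and 86.1 CPM (0.10, SE 0.09), PSMB6 at 127, 136 and 119 CPM (−0.01, SE 0.07) and PSMB7 at 236, 276 and 239 CPM (0.03, SE 0.07). The adjusted p was 0.56, 0.95 and 0.83 by edgeR, and all 3 overlapped the untreated groups.

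These values depended in part on bleogen pB1 replicate 2, which was the highest of its group in 32 of 34 members. The same share was not computed over all genes. Over genes in general, replicates 1 and 2 were also the pair of this group that differed most. The median member in replicates 1, 2 and 3 stood 0.01, 0.27 and 0.12 above the untreated mean on the log2 scale, where the untreated libraries stood at −0.05 to 0.02. Without replicate 2 no member was called, where only 0.303% of all genes were called higher. In that fit 23 of 34 members were positive, against 49.4% of all genes, and their median log2 fold change was 0.06. Without replicate 1, 10 members were called higher, against 6.49% of all genes, and the median was 0.19. The summed level of the members was 5286, 6323 and 5634 CPM in the bleogen pB1-treated libraries (5748 ± 528, SD, n = 3), so replicate 1 was within the untreated range of 5135 to 5356 CPM.

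None of the 44 related genes was called with bleogen pB1 by edgeR, where 9 were higher and 6 lower at an unadjusted p under 0.05, against 11.7% and 10.5% of all genes. DESeq2 called 6 of them in either direction, against 6.35% of the genes in its fit. The 3 immunoproteasome genes had log2 fold changes of −0.21 to −0.43 without overlap between groups, and the smallest adjusted p among them was 0.06. The share of all genes lower without overlap was not computed. PSMB8 was at 60.8, 59.7 and 59.6 FPKM, PSMB9 at 47.1, 39.8 and 37.0 FPKM and PSMB10 at 49.7, 45.4 and 45.6 FPKM. For all 3 genes the treated libraries lay between the untreated and the EGF-treated ones. The ratio of PSMB5 to PSMB8 was 1.27 ± 0.19, of PSMB6 to PSMB9 4.04 ± 0.50, and of PSMB7 to PSMB10 5.70 ± 0.74 (FPKM, SD, n = 3).

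Compared directly, EGF at 10 nM gave higher levels than bleogen pB1 at 1 µM in 30 of 34 members and lower levels in 0 by adjusted p, against 28.5% and 29.7% of all genes. Past both thresholds were 12 members, against 10.8% of all genes, and in 30 members the groups did not overlap, which held for 30.7% of all genes. The count of 12 was 5 without bleogen pB1 replicate 1 (9.46% of all genes), with upper-quartile factors (8.54%) and with no scaling factors (8.95%). It was also 5 with limma on log2 FPKM (5.1% to 7.3% of all genes). The median log2 difference was 0.41. The largest differences were those of PSMD12 (0.82, SE 0.09, adjusted p = 1.1e-05 from edgeR), PSMC4 (0.81, SE 0.08, adjusted p = 2.4e-06), PSMD6 (0.71, SE 0.08, adjusted p = 1.1e-05), PSMD14 (0.66, SE 0.09, adjusted p = 5.8e-05) and PSMB7 (0.64, SE 0.07, adjusted p = 8.7e-06). PSMC4 was at 80.2, 95.8 and 91.3 CPM and PSMD6 at 48.5, 58.9 and 54.8 CPM with bleogen pB1, so that the EGF-treated libraries given above lay higher in every case. PSMB5 was also higher with EGF (0.55, SE 0.09, adjusted p = 0.00022). The calls of PSMD9, PSMA4 and PSMA6 were the least stable, lost in 17, 16 and 11 of 21 alternatives.

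PSMB6, PSMD3, PSMD4 and PSMD10 were the members not called between the ligands, with log2 differences of −0.03 (SE 0.07), −0.04 (SE 0.12), 0.11 (SE 0.06) and −0.08 (SE 0.07). Of these, PSMB6, PSMD3 and PSMD10 were also not called for EGF against untreated cells. The 3 immunoproteasome genes were lower with EGF than with bleogen pB1, by 0.54 (SE 0.07) for PSMB8, 0.98 (SE 0.12) for PSMB9 and 0.72 (SE 0.13) for PSMB10 on the log2 scale. Of the 44 related genes, 24 were higher and 8 lower with EGF, against 28.5% and 29.7% of all genes. For single genes an exact permutation test of 3 against 3 libraries cannot give a p under 0.1, and that value was reached wherever groups did not overlap.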

How the data were processed

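Total RNA of 9 HaCaT libraries was sequenced by BGI, and the authors had the reads mapped to GRCh38.p12. The counting program and its use of the strand are not given in the sources used here. For each gene the authors deposited an expected count (not scaled for depth), an FPKM value (scaled for length and depth) and a gene length. Genes not listed in a library were counted as 0. The labels name RNeasy extraction, DNBSEQ and stranded libraries, the paper PureLink and BGISEQ.

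The rounded expected counts entered edgeR 4.0.16 under R 4.3.3 (default filterByExpr, TMM factors of 0.9635 to 1.0238, glmQLFTest, all 9 libraries, 6 residual degrees of freedom, Benjamini-Hochberg over 12394 genes). Thresholds were an adjusted p of 0.05 and, where stated, an absolute log2 fold change of 0.5. Each SE is the absolute log2 fold change over the square root of F. CPM uses TMM-scaled totals. Expected counts and FPKM summed over genes used Python 3.11.15. Replicates of a group differed by more than sampling noise, by unequal amounts. The mean chi-square per gene, about 1 for sampling noise alone, was 20.3 between EGF replicates 1 and 2. It was 20.6 between bleogen pB1 replicates 1 and 2, and 3.82 to 7.81 between the other replicate pairs. In GENCODE release 44, 36 pseudogenes are named for 15 of the members and none is listed in the files, so reads could be shared with them.

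The members and gene lists were chosen with earlier results of these data known. Genes given in full are PSMB5, PSMB6, PSMB7, PSMD14, the 5 largest called rises (and falls, of which there were none) of each comparison, and, of related lists, named genes and the 2 smallest adjusted p per list; PSMA6, PSMA7, PSMD1, PSMD3, PSMD4, PSMD10 and further genes were added after their values were seen. Promoter windows are those of RefSeq on GRCh38.p14. Alternatives were DESeq2 1.42.0, edgeR on the 6 libraries compared, other scaling and filters, limma 3.58.1 on log2(FPKM + 1) or log2(FPKM + 0.1), other fold limits, glmTreat, each library left out and a replicate block. The scripts were tested on simulated data. Some genes of the related lists are not reported here by name and remain in the counts.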

Additional observations from a re-analysis of the deposited data

How the results depend on the processing

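Of 714 alternative values of single members for EGF against untreated cells, 691 kept direction and side of the threshold, 13 lost the call, 3 gained it and 7 changed sign. For EGF against bleogen pB1 these were 648, 58, 4 and 4 of 714, and for the 6 members followed for bleogen pB1 against untreated cells 107, 0, 11 and 8 of 126. Members higher with EGF against untreated cells were 28 by adjusted p with upper-quartile factors (25.7% of all genes) and no scaling (28.5%). They were also 28 with each limma setting (21.4% to 29.9%). Past both thresholds they were 15 with upper-quartile factors (11.3%) and each limma setting (7.72% to 11.1%), and 16 with no scaling (12.8%). With a library left out these counts were 28 to 31 (28.8% to 33%) and 17 to 20 (14.4% to 16%). At an absolute log2 fold change of at least 1, the members past both thresholds fell to 2. By that rule 529 of 12394 genes were higher. The median log2 fold change of the members was 0.42 with upper-quartile factors, where the median of all genes moved to −0.12. It was 0.47 with no scaling factors, 0.45 with limma on log2(FPKM + 1) with or without the FPKM filter, and 0.45 with log2(FPKM + 0.1). With a library left out it was 0.50 to 0.56. The members called higher with bleogen pB1 by adjusted p were 2 with DESeq2 on 9 libraries (3.21% of all genes) and 3 with DESeq2 on 6 (3.89%). They were 2 with no count filter (1.75%) and 0 to 10 with a library left out (0.168% to 6.49%). The 0 of 44 related genes became 6 with DESeq2 on 9 libraries, against 6.35% of all genes in either direction. They became 7 with DESeq2 on 6, 4 with edgeR on 6 libraries and 3 with no count filter. With upper-quartile, no scaling or a minimum of 10 counts they became 1, and with a library left out 0 to 6. Shares in either direction are not given for these settings, so these counts are not read against a background. Between EGF and bleogen pB1, the 12 members past both thresholds became 5 with upper-quartile factors (8.54% of all genes), with no scaling (8.95%) and with each limma setting (5.1% to 7.3%). They became 3 with glmTreat, for which no share was computed. At an absolute log2 fold change of at least 1 they became 0, where 436 of 12394 genes were higher. With a library left out they were 5 to 16 (9.46% to 13.1%). With upper-quartile factors and each limma setting 1 member, PSMD10, was lower. Summed FPKM in place of CPM was 3642, 4855 and 3984 in untreated, EGF-treated and bleogen pB1-treated cells, and EGF-treated cells summed to 7378 CPM with no scaling. The causes of these shifts were not tested.

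Among these values, signs changed only in members that were not called. For EGF against untreated cells these were PSMB6 (−0.0819 to 0.023 with a library left out), PSMD3 (−0.0303 to 0.31) and PSMD10 (−0.035 to 0.0463, and 0.0063, 0.0023 and 0.0041 with DESeq2 on 9 libraries, on 6 and RLE factors). For bleogen pB1 they were PSMB5 (−0.0142 to 0.19), PSMB7 (−0.0484 to 0.0728) and PSMB6 (−0.0653 to 0.0368, and 0.0034 with no scaling and 0.019, 0.019 and 0.0191 with the limma settings). Between the ligands they were PSMB6 (−0.0726 to 0.0359) and PSMD3 (−0.22 to 0.13).

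To look for pairing, the deviations of each library from its group mean (log2 CPM, genes past the filter) were correlated between groups. For same-numbered libraries the correlation was 0.00 to 0.05 (EGF and untreated), −0.03 to 0.21 (bleogen pB1 and untreated) and 0.03 to 0.06 (EGF and bleogen pB1). For differently numbered ones it was −0.076 to 0.041, −0.253 to 0.163 and −0.078 to 0.05. The main fit had no replicate block because the labels share only a number. With the replicate block 30 members were higher with EGF than in untreated cells (32.2% of all genes), 18 of them past both thresholds (15.1%). With bleogen pB1 0 were called, where 1.36% of all genes were higher. Higher with EGF than with bleogen pB1 were 30 (28.5%), 13 of them past both thresholds (10.8%). Of the 44 related genes 1 was called with bleogen pB1, a count not read against a background because the share in either direction is not given. The depth of 20288417 counts or more leaves every member but PSMA8 with at least 675 counts, so the spread between 3 libraries limits the precision more than counting does.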
